A study of Rattus norvegicus with 6 samples.

Results

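The genes described here are the Wnt ligands, the Frizzled, LRP, ROR and LGR receptors, the R-spondins, the secreted antagonists of the SFRP, DKK and WIF1 families and the Axin scaffolds. They were chosen by gene symbol alone, which gave 51 entries of the 27217 in the expression table, under 49 different names. RNA sequencing was done on RCS cells (3 libraries), a cartilage-like line derived from a rat chondrosarcoma, and on rib tissue of neonatal rats (3 libraries), where muscle, bone and connective tissue may accompany cartilage. The labels give no treatment, strain or genotype, and they do not say which cultures or animals the replicates came from, so the p-values measure only the spread between these libraries. Levels are called normalized counts here, since the low values were read as reads scaled by 1 factor per library without division by gene length. That reading rests on the values alone, and each gene is compared only with itself across libraries. A value of 1 or less was listed as 0, which on that reading corresponds to at most 1.41 to 1.93 reads in an RCS library and 0.975 to 1.32 reads in a rib library.

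Wnt proteins are lipid-modified secreted signals that bind Frizzled receptors on the cell surface. With the co-receptors LRP5 or LRP6 they stop the destruction complex, built on Axin, from degrading beta-catenin, which then acts with TCF and LEF factors on DNA. Other Wnt proteins act through ROR receptors without beta-catenin. SFRP proteins and WIF1 hold Wnt proteins outside the cell, DKK proteins block LRP5 and LRP6, and R-spondins with LGR receptors keep Frizzled proteins on the surface by clearing the ubiquitin ligases ZNRF3 and RNF43. In the growth plate, beta-catenin signalling is known to favour chondrocyte hypertrophy and bone formation, while WNT5A and WNT5B act in column formation and the timing of chondrocyte maturation.

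Promoters of 4 members are printed here, as the 250 bases before the annotated start, from RefSeq on GRCr8 (32 of the 49 names had a promoter in that table). Axin2, which was lower in RCS cells, and Wnt8a, which was found in RCS cells alone, are shown because they carry letters of the TCF/LEF motif, which is in capitals. The motif was searched as CTTTGAT and CTTTGAA on both strands. Sfrp2 and Wif1 are shown because both encode secreted antagonists that were lower in RCS cells. Their promoters are rich in the base pair CG, which is in capitals, as are most of the 32 member promoters. Axin2 lies at chr10:94398535-94398784 and Wnt8a at chr18:26411583-26411832, both on the plus strand. Sfrp2 lies at chr2:171387286-171387535 and Wif1 at chr7:58433329-58433578, also both on the plus strand.
Axin2: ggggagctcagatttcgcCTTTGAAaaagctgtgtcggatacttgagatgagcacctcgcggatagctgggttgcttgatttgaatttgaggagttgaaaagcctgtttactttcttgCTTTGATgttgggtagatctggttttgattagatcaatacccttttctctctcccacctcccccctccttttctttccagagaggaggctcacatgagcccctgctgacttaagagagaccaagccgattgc
Wnt8a: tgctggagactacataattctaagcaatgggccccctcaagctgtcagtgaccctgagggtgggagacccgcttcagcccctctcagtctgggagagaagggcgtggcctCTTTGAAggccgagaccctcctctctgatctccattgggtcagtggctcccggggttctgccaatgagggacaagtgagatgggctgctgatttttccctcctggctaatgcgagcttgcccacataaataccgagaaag
Sfrp2: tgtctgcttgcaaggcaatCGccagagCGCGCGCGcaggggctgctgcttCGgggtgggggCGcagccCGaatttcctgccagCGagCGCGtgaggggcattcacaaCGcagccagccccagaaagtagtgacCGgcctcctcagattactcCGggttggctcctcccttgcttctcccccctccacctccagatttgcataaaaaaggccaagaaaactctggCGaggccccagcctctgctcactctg
Wif1: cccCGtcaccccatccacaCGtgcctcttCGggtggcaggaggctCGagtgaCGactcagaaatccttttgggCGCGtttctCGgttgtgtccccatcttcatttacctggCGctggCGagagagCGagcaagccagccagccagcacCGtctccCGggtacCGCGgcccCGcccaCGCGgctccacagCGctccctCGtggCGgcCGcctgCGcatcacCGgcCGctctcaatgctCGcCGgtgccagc

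The motif began 232 and 132 bases before the start in Axin2 and 140 bases before it in Wnt8a, in each case on the printed strand. It was present in 3 of the 32 member promoters, the other being that of DKK1, and in 7.58% of all 27455 promoters of that length. A SOX motif, searched as ACAATGG on both strands, was in 0 of the 32 and in 3.15% of all promoters. Sfrp2 held 15 CG pairs and Wif1 held 27, against 5 in Axin2, 6 in Wnt8a and a median of 6 over all promoters. The median over the 32 member promoters was 20.5, so Sfrp2 lay below it and Wif1 above it. Of the 32 member promoters, 22 had an observed over expected CG ratio of at least 0.6, as had 35.4% of all promoters. The median ratio was 0.667 for 5 members listed at 0 in every RCS library, 0.764 for 12 members that were lower in RCS cells but detected in every library, and 0.584 for 5 members that were higher. These are descriptions of letters in a fixed window, and no protein binding or methylation was measured here.

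Estimated depth was 6000000 to 8520000 reads per RCS library and 5320000 to 7490000 per rib library, counted over genes. Log2 values correlated across genes at 0.991 to 0.994 within RCS cells, 0.969 to 0.981 within rib tissue and 0.65 to 0.69 between groups. The 8 chondrocyte markers summed to 53664 to 74075 normalized counts in RCS libraries and 99067 to 167173 in rib libraries, and none was at 0 in any library. They went both ways, with Matn1 and Comp higher in every RCS library, Col2a1 and Col11a2 lower, and Acan, Col9a1, Hapln1 and Sox9 overlapping. The sum was carried largely by Col2a1, at 10780 to 16800 per RCS library and 55600 to 112900 per rib library. The 7 skeletal muscle markers found in the table summed to 28 to 49 per RCS library and 21754 to 38971 per rib library, and the 8 fibroblast markers to 115 to 134 and 29668 to 47514, with Dcn, Prrx1 and Twist2 at 0 in every RCS library. The 8 osteoblast markers came to 1235 to 1422 per RCS library and 20212 to 47400 per rib library (Dmp1 at 0 in RCS cells), most of it Col1a1 in rib tissue, while Sp7 and Alpl overlapped between the groups. The 8 endothelial markers summed to 706 to 734 per RCS library and 2870 to 4490 per rib library (Cdh5, Kdr, Tie1 and Emcn at 0), and the 8 macrophage markers to 25 to 37 and 1289 to 2405 (5 of 8 at 0). The 6 adipocyte markers summed to 166 to 195 per RCS library and 1493 to 3030 per rib library (Lpl and Cd36 at 0). Among them Pparg went the other way, at 147.3, 150.3 and 177.5 in RCS cells and 141.8, 142.9 and 48.94 in rib tissue. Pparg made up most of the adipocyte sum in RCS cells. The 6 Schwann and nerve markers summed to 819 to 935 per RCS library and 2475 to 3256 per rib library (none at 0). The part of these cell types in the differences described here was not tested. Of 20 genes that most cells use, none was at 0 in any library. Of these, 9 were higher in every RCS library than in any rib library and 2 were lower. Their sums were 17926 to 22410 per RCS library and 14863 to 18587 per rib library.

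Most of these genes were lower in RCS cells, among them 7 secreted antagonists, 3 of 4 R-spondins and both LRP co-receptors, while Wnt11, Wnt10b, Wnt8a, Wnt5b and Rspo3 were higher. In limma, fitted to all 16809 genes that passed the filter on low values, 42 of the 51 entries could be tested. At a Benjamini-Hochberg adjusted p under 0.05, 9 of these were higher in RCS cells, 28 were lower and 5 were neither. Called genes were 76.5% of all genes tested, 32.9% higher and 43.6% lower, and for the members the shares were 88.1%, 21.4% and 66.7%. The groups did not overlap for 37 of the 42 members, as for 78.9% of all genes tested. Part of this count is fixed by the filter, since 13 of the 42 members were listed at 0 in every RCS library and passed through rib tissue alone, or 31.0% against 11.6% of all genes tested. One member, Wnt8a, passed through RCS cells alone, a pattern found in 0.797% of genes tested. In the main test the direction of these 14 members was fixed by the filter, so they are described by their values, with no p. For Wnt3, differences under quantile normalization and cyclic loess are given too. Among the 28 members listed above 0 in all 6 libraries, 8 were higher, 15 lower and 5 neither, or 28.6% higher and 53.6% lower, where the background was 38.8% and 34.6% of such genes (73.4% called in all, and 76.5% without overlap). The median difference, as RCS cells minus rib tissue on the log2(normalized count + 1) scale, was -0.74 for these 28 members and 0.081 for all genes of that kind. Over all 42 tested it was -1.84, or -1.55 with every entry at 0 set to 1 normalized count, beside -0.15 for all genes under either setting. In bulk samples such as these, fewer cells of a type and less RNA per cell cannot be told apart.

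**Figure D1:**
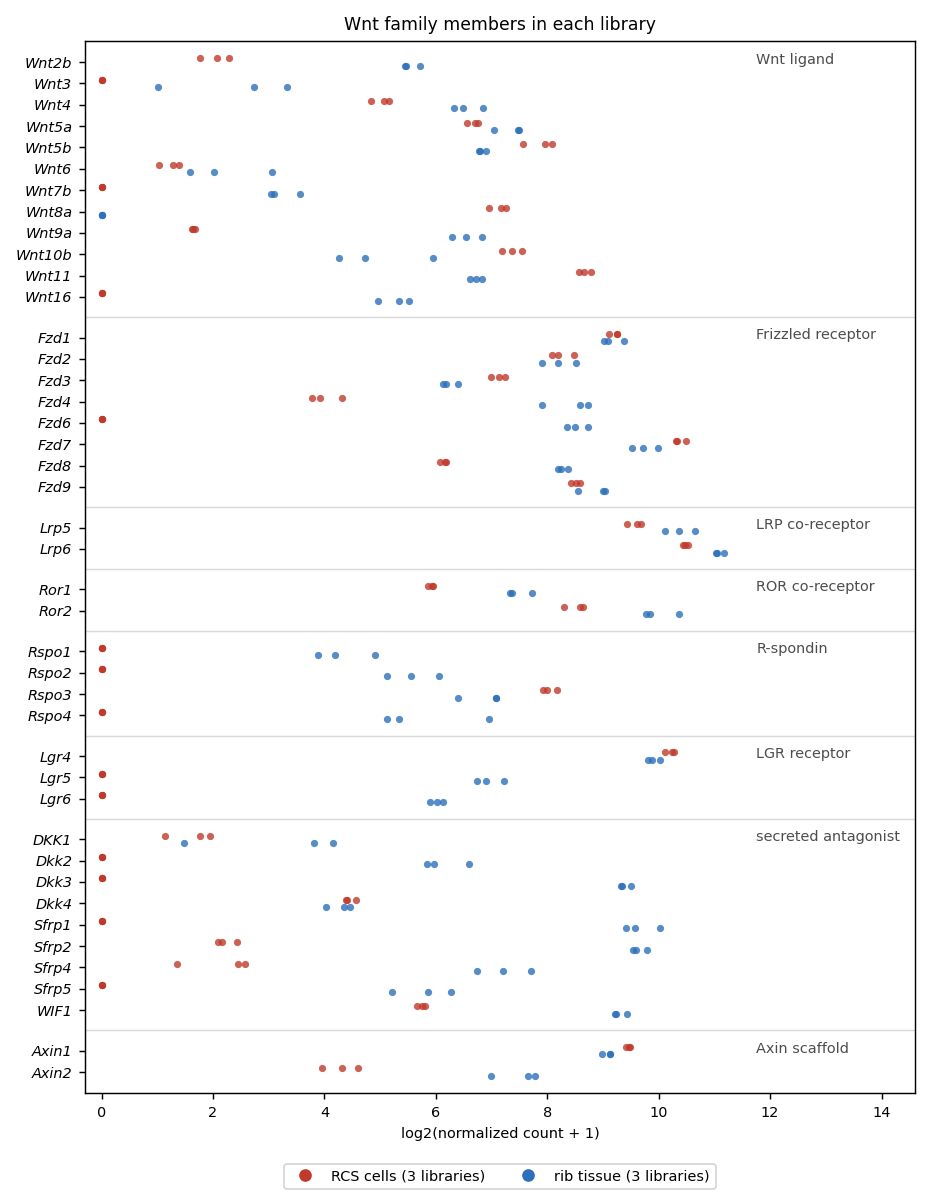
Levels of the 42 tested members in each library, as log2(normalized count + 1) on the x axis, grouped by role, with 3 points per group in red for RCS cells and blue for rib tissue. In 13 rows the red points lie at 0 while the blue points are above it, and in the Wnt8a row the blue points lie at 0.

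Among ligands, 4 were higher in RCS cells, 7 were lower and 1 was neither, beside 32.9% higher and 43.6% lower of all genes tested. Of the 8 detected in all 6 libraries, 3 were higher and 4 lower, beside 38.8% and 34.6% of all such genes. Wnt11 (ENSRNOG00000015982), a ligand best known for signalling without beta-catenin, had 403, 440 and 378 normalized counts in RCS cells, against 104, 113 and 97.0 in rib tissue. It was 3.86-fold higher (log2 difference 1.95, SE 0.10). Wnt5b (ENSRNOG00000008168), a ligand of prehypertrophic chondrocytes, had 272, 247 and 189 in RCS cells and 110, 109 and 118 in rib tissue, 2.07-fold higher (1.05, SE 0.14). Every RCS library stood above every rib library for both genes. Wnt10b (ENSRNOG00000014393), a ligand that promotes bone formation, had 186, 163 and 145 in RCS cells, against 60.4, 25.4 and 18.2 in rib tissue. It was 5.24-fold higher (2.39, SE 0.38), with rib replicate 1 above the other rib libraries. In the RefSeq annotation on GRCr8 Wnt10b overlaps the tubulin gene Tuba1c, while the processing notes name rn5. Tuba1c had 907, 935 and 648 in RCS cells and 569, 405 and 389.9 in rib tissue. Strand use is not stated, and whether Wnt10b and Tuba1c share reads was not tested. Wnt1, which overlaps Tuba1c too, was at 0 in all 6 libraries. Overlaps were also annotated for Wnt5b with Fbxl14 and for Lgr5 with LOC120093591 and a tRNA gene. Wnt11, Wnt5b, Wnt7b and Wif1 overlap long noncoding RNA genes, Fzd3 and Lrp5 overlap pseudogenes, and Axin1 and Ror1 overlap small nuclear RNA genes. Reads of these overlapping genes were not separated here. Nme8, which overlaps Sfrp4, was at 0 in all libraries except for 1.03 in rib replicate 2. Sec31b, which overlaps Wnt8b, was at 43.7, 54 and 18.5 in rib tissue, where Wnt8b was at 0, 0 and 2.

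Wnt8a (ENSRNOG00000020157) was present in RCS cells and not detected in rib tissue. This ligand, known from axis formation in the embryo, had 124, 142 and 152 normalized counts in RCS cells and was listed at 0 in all 3 rib libraries. No other member showed that pattern. For Wnt11, Wnt5b and Wnt10b the limma adjusted p (Benjamini-Hochberg) ran from 8.42e-07 to 0.000537.

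Of the ligands that were lower in RCS cells, 4 were detected in all 6 libraries. Wnt9a (ENSRNOG00000003066), a ligand of developing joints, had 2.18, 2.08 and 2.13 normalized counts in RCS cells, against 112, 92.1 and 77.3 in rib tissue. Wnt2b had 3.22, 3.89 and 2.38 in RCS cells and 43.0, 51.5 and 42.5 in rib tissue. For both genes RCS cells stood near the lowest value that the table lists. Wnt4, a ligand also expressed in joints and at the onset of hypertrophy, had 34.9, 32.6 and 27.6 in RCS cells and 114, 89.0 and 78.9 in rib tissue (2.89-fold lower, log2 difference -1.53, SE 0.19). Wnt5a (ENSRNOG00000015618), the relative of Wnt5b, had 103, 107 and 92.7 in RCS cells and 177, 179 and 131 in rib tissue, 1.59-fold lower (-0.67, SE 0.15). The pair Wnt5a and Wnt5b thus differed in opposite directions between the groups. The limma adjusted p (Benjamini-Hochberg) for these 4 ran from 6.06e-07 to 0.00334.

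A further 3 ligands were listed at 0 in every RCS library. Wnt16, also a ligand of joints and cortical bone, had 30.2, 39.4 and 44.8 normalized counts in rib tissue. Wnt7b, a ligand linked to osteoblasts, had 10.8, 7.22 and 7.50, and Wnt3 had 5.68, 1.03 and 9. Wnt6 had 1.63, 1.04 and 1.42 in RCS cells, against 3.03, 7.36 and 2 in rib tissue. It did not overlap between the groups but missed the threshold (limma adjusted p 0.0572, Benjamini-Hochberg). The 7 ligands not tested were Wnt1, Wnt2, Wnt3a, Wnt7a, Wnt8b, Wnt9b and Wnt10a. All 7 were listed at 0 in every RCS library, and only Wnt10a (13.2, 6.16 and 0) and Wnt2 (3.53, 6.16 and 0) were listed above 2 in any rib library.

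Calls at these low levels depended on scaling. The Wnt3 call was lost and its difference turned positive under quantile normalization (0.039) and cyclic loess (0.12). Quantile normalization (1.45) and cyclic loess (1.30) put Wnt6 higher in RCS cells, and it was called lower with array weights (-1.41), without rib replicate 3 (-1.31) and with entries at 0 set to 1 (-0.99). Under quantile normalization the Wnt5a call was lost (-0.39, limma adjusted p 0.0512), Wnt4 moved to -0.58 and Wnt10b to 3.50.

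Frizzled receptors, which bind the ligands, split in both directions. Fzd7 (ENSRNOG00000016119) had 1292, 1433 and 1270 normalized counts in RCS cells, against 846, 736 and 1013 in rib tissue, 1.55-fold higher (log2 difference 0.63, SE 0.12). Fzd3, a receptor known for planar cell polarity and axon guidance, had 127, 140.1 and 151 in RCS cells and 68.7, 83.6 and 71.3 in rib tissue, 1.86-fold higher (0.89, SE 0.13). Neither gene overlapped between the groups. Their limma adjusted p values (Benjamini-Hochberg) were 0.00149 and 0.000371.

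The Frizzled genes that were lower included one that was not detected in RCS cells. Fzd6 (ENSRNOG00000004660), a planar polarity receptor like Fzd3, was at 0 in all RCS libraries, against 324, 421 and 362 normalized counts in rib tissue. Fzd4 (ENSRNOG00000016848), the receptor of Norrin in blood vessels, had 14.1, 18.8 and 12.8 in RCS cells, against 422, 385 and 239 in rib tissue, 21.2-fold lower (-4.40, SE 0.25). Rib replicate 3 was the lowest rib library for Fzd4 and also for the summed endothelial markers, at 2870 against 3937 and 4490. The muscle, fibroblast, osteoblast, macrophage and adipocyte sums were lowest in that library too, and the part of any of these cells was not tested. Fzd8 had 66.5, 70.4 and 71.9 in RCS cells and 331, 292 and 302 in rib tissue, 4.37-fold lower (-2.13, SE 0.10). Adjusted p values in limma (Benjamini-Hochberg) were 1.15e-06 for Fzd4 and 5.3e-07 for Fzd8. A second entry named FZD8 was at 0 in all 6 libraries.

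Fzd1, Fzd2 and Fzd9 stood close in both groups. Fzd1 had 608, 605 and 550.0 normalized counts in RCS cells and 666, 520 and 542 in rib tissue, a difference of 0.04 (95% interval -0.21 to 0.28). Fzd2 had 293, 356 and 272 in RCS cells and 366, 240.0 and 292 in rib tissue, a difference of 0.05 (interval -0.33 to 0.43). Both overlapped between the groups. Fzd9, a receptor with a role in bone formation, had 363, 382 and 342 in RCS cells and 513, 376 and 526 in rib tissue, 1.29-fold lower (-0.36, SE 0.13, limma adjusted p 0.0352 by Benjamini-Hochberg). Its groups overlapped too, and its call was lost without any of the 3 RCS libraries (-0.37, -0.40 and -0.32) or without rib replicate 1 (-0.30) or 3 (-0.28). Fzd9 also lost its call under quantile normalization (-0.30), under median scaling (-0.073), with array weights (-0.21) and without a filter (limma adjusted p 0.126). Fzd1 was called higher under median scaling (0.33). Under quantile normalization Fzd3 moved to 1.53 and Fzd4 to -3.57.

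All 4 LRP and ROR co-receptors were lower in RCS cells, beside 34.6% of all genes listed above 0 in all 6 libraries. Lrp5 (ENSRNOG00000015911), a co-receptor known for its effect on bone mass, had 815, 777 and 693 normalized counts in RCS cells and 1598, 1109 and 1319 in rib tissue, 1.75-fold lower (-0.80, SE 0.14). Lrp6 (ENSRNOG00000006338) had 1418, 1468 and 1389 in RCS cells and 2116, 2075 and 2307 in rib tissue, 1.52-fold lower (-0.60, SE 0.079). The groups did not overlap, and both genes remained detected in every RCS library. Ror2 (ENSRNOG00000010974), a receptor for WNT5A that is needed for normal cartilage growth, had 386, 397 and 312 in RCS cells and 923, 868 and 1312 in rib tissue, 2.80-fold lower (-1.48, SE 0.17). Ror1, its paralog, had 60.8, 60.1 and 56.8 in RCS cells and 160, 210.5 and 164 in rib tissue, 2.95-fold lower (-1.56, SE 0.14). The limma adjusted p (Benjamini-Hochberg) for these 4 genes ran from 1.85e-05 to 0.000714. The Lrp6 call was lost under quantile normalization (-0.14, limma adjusted p 0.075 by Benjamini-Hochberg).

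Of the R-spondins and their receptors, RCS cells had Rspo3 and Lgr4 and none of the other 5 was detected in them. Rspo3 (ENSRNOG00000011568) had 242, 254 and 288 normalized counts in RCS cells, against 83.3, 134 and 134 in rib tissue, 2.27-fold higher (log2 difference 1.18, SE 0.19). Lgr4 (ENSRNOG00000005715), the most widely expressed of the LGR receptors, had 1237, 1205 and 1102 in RCS cells and 900, 935 and 1044 in rib tissue, 1.23-fold higher (0.30, SE 0.087). Every RCS library was above every rib library for both genes. Rspo3 had a limma adjusted p (Benjamini-Hochberg) of 0.000533 and Lgr4 of 0.0129, and the Lgr4 call was lost without RCS replicate 1 (0.27, adjusted p 0.053) or RCS replicate 2 (0.29, adjusted p 0.0571).

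No RCS library listed Rspo1, Rspo2, Rspo4, Lgr5 or Lgr6 above 0. In rib tissue Rspo2, an R-spondin needed for limb development in mice, had 65.7, 45.8 and 33.8 normalized counts. Rspo1 had 28.8, 17.3 and 13.7, and Rspo4 had 33.6, 39.3 and 123, with rib replicate 3 far above the others. Lgr5 (ENSRNOG00000004221), a beta-catenin target and stem cell marker in the gut, had 106, 118 and 148 in rib tissue. Lgr6 had 69.1, 63.5 and 58.8 there.

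Most secreted antagonists were lower in RCS cells. Of 9 tested, 7 were lower, 0 were higher and 2 were neither, beside 43.6% lower and 32.9% higher of all genes tested. However, 4 of the 7 were at 0 in all RCS libraries. Among the 5 detected in all 6 libraries, 3 were lower and 2 neither, beside 34.6% lower of all such genes. Sfrp1 (ENSRNOG00000017783), which binds Wnt proteins, was at 0 throughout RCS cells, against 683, 764 and 1042 normalized counts in rib tissue. Sfrp2 (ENSRNOG00000009465), whose promoter is printed above, had 3.47, 3.24 and 4.38 in RCS cells, against 881, 743 and 768 in rib tissue. Sfrp4 had 4.42, 1.56 and 4.96 in RCS cells and 105, 207 and 146 in rib tissue. Sfrp5 was listed at 0 in RCS cells and had 56.8, 35.9 and 76.1 in rib tissue. None of the 4 SFRP genes exceeded 5 normalized counts in any RCS library. The related gene Frzb, which encodes a cartilage antagonist of the same family, was likewise at 0 in RCS cells, against 1162, 1138 and 1768 in rib tissue.

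Wif1 (listed as WIF1, ENSRNOG00000004476), an antagonist found in cartilage, stayed detected in RCS cells at a lower level. It had 54.6, 49.5 and 53.1 normalized counts in RCS cells, against 590.3, 599 and 689 in rib tissue, 11.7-fold lower (log2 difference -3.55, SE 0.10). Dkk3 (ENSRNOG00000016343), a divergent member of the DKK family, was at 0 in each RCS library, against 641, 725 and 649 in rib tissue. Dkk2, a blocker of LRP5 and LRP6, was also at 0 in RCS cells and had 56.3, 95.6 and 61.4 in rib tissue. For Sfrp2, Sfrp4 and Wif1, the antagonists that were lower and above 0 in all 6 libraries, the limma adjusted p (Benjamini-Hochberg) ran from 1.62e-08 to 6.7e-06. Fibroblast markers were lower in RCS cells too, summing to at most 134 in an RCS library and at least 29668 in a rib library. So were the summed muscle, osteoblast, endothelial, macrophage, adipocyte and Schwann markers, and the part of any of these cells was not tested.

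Dkk4, another LRP5 and LRP6 blocker, did not pass the test. It had 19.9, 20.1 and 22.7 normalized counts in RCS cells and 19.5, 20.9 and 15.3 in rib tissue, a difference of 0.17 (95% interval -0.36 to 0.70). Its value turned on scaling, with calls of higher in RCS cells from cyclic loess (1.50) and quantile normalization (2.15). Dkk1 had 2 entries. The one listed as DKK1 (ENSRNOG00000048688) had 1.21, 2.84 and 2.40 in RCS cells and 16.9, 13.0 and 1.79 in rib tissue, so the groups overlapped through rib replicate 3 (limma adjusted p 0.0661, Benjamini-Hochberg). It was called lower without that library (-2.37), with array weights (-1.76) and with the replicate number as a block (-1.53, limma adjusted p 0.0306), and its sign turned under quantile normalization (0.89) and cyclic loess (0.51). The other Dkk1 entry was at 1.14 in rib replicate 1 and at 0 elsewhere, and was not tested.

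**Figure D2:**
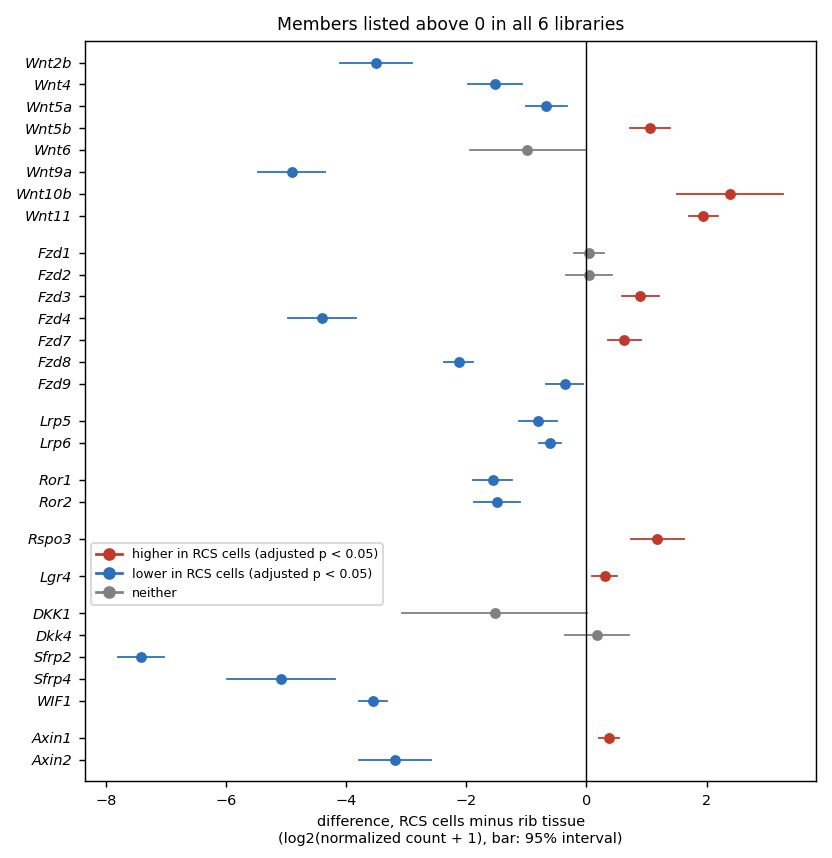
Differences of the 28 members listed above 0 in all 6 libraries, as RCS cells minus rib tissue on the log2(normalized count + 1) scale, with 95% intervals from limma. Wnt10b, Wnt11, Rspo3 and Wnt5b lie farthest to the right, at 1.05 to 2.39, and Sfrp2, Sfrp4, Wnt9a and Fzd4 farthest to the left.

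The Axin genes differed in opposite directions. Axin1 (ENSRNOG00000020414), the constant scaffold of the destruction complex, had 712, 680 and 706 normalized counts in RCS cells and 554, 506 and 560 in rib tissue, 1.30-fold higher (log2 difference 0.37, SE 0.075). Axin2 (ENSRNOG00000003612), a negative regulator that beta-catenin itself induces in many tissues, had 14.4, 18.9 and 23.4 in RCS cells, against 200.5, 219 and 126 in rib tissue. Axin2 was thus 9.11-fold lower in RCS cells (-3.19, SE 0.26), and no library of either group overlapped with the other. Axin1 had a limma adjusted p (Benjamini-Hochberg) of 0.00189 and Axin2 of 9.63e-06. Under quantile normalization the Axin2 difference was -2.36.

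Other genes of the pathway were taken from a list of 64 outside the family, of which 63 were found in the table and 59 were tested. In RCS cells 10 of these were higher, 39 were lower and 10 were neither, or 16.9% higher and 66.1% lower, beside 32.9% and 43.6% of all genes tested. Their median difference was -0.72, beside -0.15 for all genes tested. Of the 59, 4 were listed at 0 in every RCS library, and among the 54 above 0 in all 6 libraries 10 were higher and 34 lower. Of all genes above 0 in all 6 libraries, 38.8% were higher and 34.6% lower. The list split as 17 higher and 31 lower under median scaling and as 15 and 36 under quantile normalization. Under the same settings all genes tested split as 7143 higher and 6220 lower, and as 8000 and 4924. Ctnnb1, which encodes beta-catenin, had 2613, 2697 and 2222 normalized counts in RCS cells and 2510, 2129 and 2302 in rib tissue, a difference of 0.12 (95% interval -0.13 to 0.36). It overlapped between the groups, but median scaling (0.41), cyclic loess (0.39) and quantile normalization (0.82) each put it higher in RCS cells, past the threshold.

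Most TCF and LEF factors and their cofactors were lower in RCS cells, at 13 of 16 tested, with 2 higher and 1 neither. All 16 were above 0 in all 6 libraries, and of all such genes 34.6% were lower and 38.8% higher. Lef1 had 3.33, 1.90 and 1.42 normalized counts in RCS cells, against 120, 118 and 173 in rib tissue. Tcf7l1, known as the repressor among them, had 12.3, 14.3 and 8.16 in RCS cells and 484, 598 and 612 in rib tissue (45.7-fold lower, -5.51, SE 0.21). Tcf7 had 25.5, 23.5 and 20.2 in RCS cells and 178, 143 and 87.3 in rib tissue (5.49-fold lower). Tcf7l2 had 124, 93.6 and 80.2 in RCS cells and 244, 303 and 295 in rib tissue (2.84-fold lower). All 4 factors were lower in every RCS library than in any rib library, with limma adjusted p values (Benjamini-Hochberg) of 1.6e-07 to 6.9e-05. Under quantile normalization Tcf7l1 moved to -4.58 and Tcf7 to -1.58. Tle6 (listed as RGD1561530), of the Groucho family of corepressors, was higher, at 31.6, 17.02 and 25.1 in RCS cells and 2.48, 2.46 and 1.64 in rib tissue, as was Cby1, an inhibitor of beta-catenin (1.75-fold, 0.81, SE 0.11).

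Nkd1, which binds Dishevelled, had 5.17, 9.34 and 4.96 normalized counts in RCS cells and 315, 286 and 388 in rib tissue. Notum, an enzyme that removes the lipid from Wnt proteins, was at 0 in RCS cells, against 166, 126 and 205 in rib tissue. Apcdd1, a membrane inhibitor, was also at 0 in RCS cells and had 355, 307 and 409 in rib tissue. By limma with Benjamini-Hochberg adjustment, p was 4.24e-07 for Nkd1. The ubiquitin ligase genes differed in direction. Rnf43 was at 20.8, 13.1 and 27.8 in RCS cells and 4.78, 5.81 and 7.34 in rib tissue, called higher (limma adjusted p 0.00254, Benjamini-Hochberg). Znrf3 was at 111, 94.8 and 104 in RCS cells and 140, 152 and 121 in rib tissue, 1.32-fold lower (-0.41, SE 0.13, limma adjusted p 0.0205). The Znrf3 call was lost without RCS replicate 2 (-0.34) or 3 (-0.41), without rib replicate 2 (-0.33) and under quantile normalization (-0.079) and median scaling (-0.11).

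**Figure D3:**
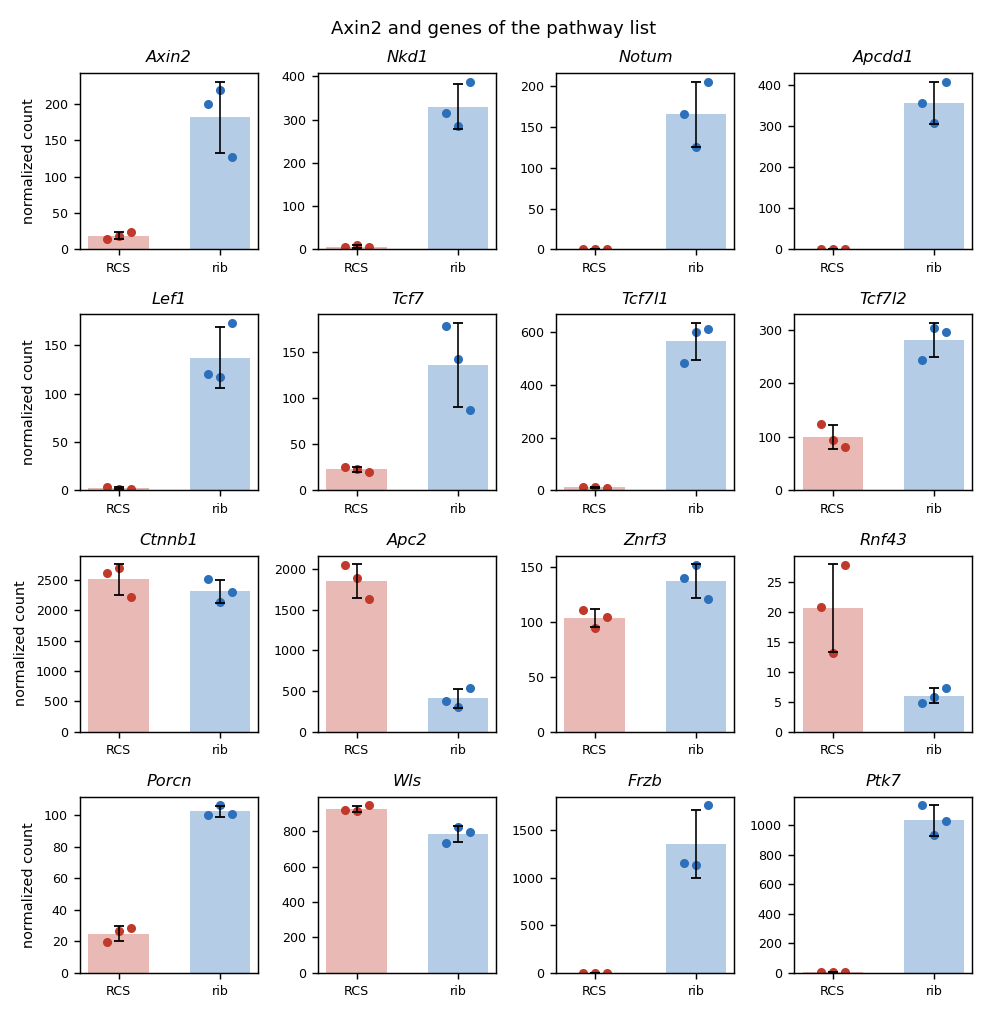
Normalized counts of Axin2 and 15 genes of the pathway list, with points for the 3 libraries, bars for the mean and error bars for the SD, RCS cells in red and rib tissue in blue. Nkd1, Notum, Apcdd1, Lef1, Frzb and Ptk7 lie below 10 in RCS cells, Ctnnb1 overlaps between the groups, and Apc2 and Rnf43 are higher in RCS cells.

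Of the genes that make and release ligands, Porcn, which attaches the lipid, had 19.6, 26.3 and 28.7 normalized counts in RCS cells and 100.3, 106 and 101 in rib tissue, 4.05-fold lower (-2.02, SE 0.19). Wls, the carrier that brings Wnt proteins to the surface, had 919, 913 and 947 in RCS cells and 731, 825 and 795 in rib tissue, 1.18-fold higher (0.24, SE 0.075). Porcn had a limma adjusted p (Benjamini-Hochberg) of 2.09e-05 and Wls of 0.0173, and the Wls call was lost without RCS replicate 2 (0.25) or 3 (0.23). Porcn moved to -1.04 under quantile normalization. Of the 13 genes of beta-catenin, the destruction complex and its kinases, 4 were higher, 5 lower and 4 neither. All 13 were above 0 in all 6 libraries, and of all such genes 38.8% were higher and 34.6% lower. All of the 13 other than Apc2 differed by -1.07 to 0.43.

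Apc2, the paralog of Apc, had 2045, 1884 and 1635 normalized counts in RCS cells and 379, 307 and 542 in rib tissue, 4.63-fold higher (2.21, SE 0.19). Dact1, which binds Dishevelled, had 1008, 932 and 799 in RCS cells and 296, 315 and 256 in rib tissue, 3.15-fold higher (1.66, SE 0.11). Both were higher in every RCS library. At the surface, Ptk7, a polarity co-receptor, had 3.24, 2.67 and 3.43 in RCS cells and 1137, 932 and 1029 in rib tissue. Gpc3, a glypican, had 1.09, 0 and 2.13 in RCS cells and 856, 1038 and 941 in rib tissue. Adjusted p values in limma (Benjamini-Hochberg) were 1.42e-05 for Apc2, 3.77e-06 for Dact1 and 1.21e-08 for Ptk7. Sost, the antagonist made by osteocytes, was not tested, being at 12.4 and 12.3 in rib replicates 1 and 2 and at 0 in the other 4 libraries.

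**Figure D4:**
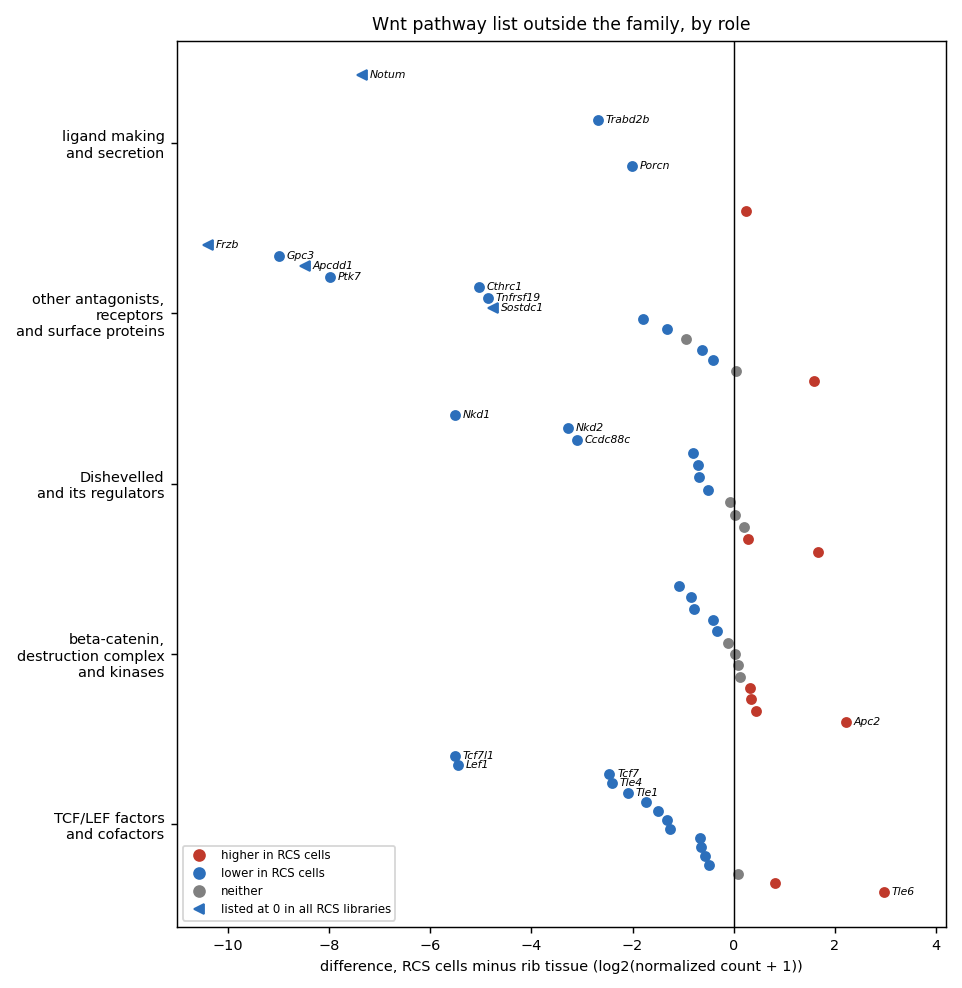
Differences of the 59 tested pathway genes by role, as RCS cells minus rib tissue on the log2(normalized count + 1) scale, with names where the difference exceeds 2 in size. Triangles mark the 4 genes listed at 0 in all RCS libraries, whose plotted size depends on the pseudocount, and 13 of the 16 TCF/LEF factors and cofactors lie left of 0 in blue.

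The rib libraries differed among themselves for some members. Rib replicate 3 was the highest for Rspo4, Sfrp1, Ror2 and Wif1 and the lowest for Fzd4, Axin2 and Wnt4. In the same library the summed markers were 21754 for skeletal muscle, against 38971 and 33002 in rib replicates 1 and 2, and 1493 for adipocytes, against 2956 and 3030. The fibroblast, osteoblast, endothelial and macrophage sums were lowest there too, and the Schwann and nerve sum was highest, at 3256 against 2475 and 3130. Among bone markers, Dmp1 was at 13.5 in rib replicate 3, against 319 and 273, and Ibsp at 134, against 1239 and 815. DKK1, at 1.79 against 16.9 and 13.0, was lowest in that library as well, as was Sost, at 0. The part of these cells in the members' spread was not tested. In no case did this spread bring Rspo4, Sfrp1, Ror2, Wif1, Fzd4, Axin2 or Wnt4 of a rib library to the level of an RCS library.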

How the data were processed

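Libraries were grouped by sample titles, with 3 of RCS cells and 3 of rib tissue. The authors deposited 1 table of log2 values. Its low values were read as steps of reads scaled by a single library factor, with no gene length in them, although its name carries a per-length unit, and no source states this. The submitters' processing notes name CASAVA 1.8, DESeq and rn5 without their roles. Aligner, counting rule and strand use: not given in the sources used here. Only 38.5% to 54.7% of low values (10 reads or fewer) fell within 0.01 of whole reads, so reads were not recovered and no count model was used. Evenly spread values would give 2%. Each step was fitted to these same values, so 2% is not the chance rate for a fitted step. The planned log-scale test was used, which does not need whole reads. Estimated reads limit precision, with 1 read worth 0.519 to 1.03 normalized counts.

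The test was two-sided limma (version 3.58.1, under R 4.3.3) with a mean-variance trend, on log2(normalized count + 1) of genes with at least 1 normalized count in at least 3 libraries, with Benjamini-Hochberg adjustment over all genes tested, and the script was tested on simulated data. Folds are on that scale and so understate changes at low levels. No p is given for a gene at 0 in a whole group, whose direction in the main test was fixed by the filter. In the text, differences of the main test are left out where a group averaged under 10 normalized counts. For Wnt3, Wnt6 and DKK1, differences under alternatives are given where the call or sign changed. No library pair was identical (0 pairs). Alternatives were quantile normalization, median scaling, cyclic loess, no filter, a filter of 10, pseudocounts of 0.1 and 5, array weights, the replicate number as a block and leaving out each library. Setting entries at 0 to 1 normalized count was added after the data were seen. The members, the pathway and marker lists and the rules for named genes were chosen with earlier results of these data known. Every tested member is named, with values per library for called members at least 2-fold apart with at least 10 normalized counts in the higher group and for Axin2, Lgr5, Lrp5, Lrp6, Ror2 and Wif1. Of the pathway list, 13 genes fixed by name and the 5 most raised and 5 most lowered called genes are named. Promoters, gene overlaps and neighbours come from RefSeq on GRCr8.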

Additional observations from a re-analysis of the deposited data

How the results depend on the processing

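Over 16 alternatives, the counts of members called higher (9) and lower (28) in RCS cells stayed within 1.5 times, as did those of all genes (5536 and 7324). Leaving out each library gave 8 to 9 members higher and 27 to 29 lower, 8 to 11 and 36 to 40 pathway genes, and 4905 to 5540 and 6856 to 7306 of all genes. The pathway genes called higher numbered 17 under median scaling, against 10, and the cause was not tested. Quantile normalization moved the median of all genes by 0.47, median scaling by 0.29 and cyclic loess by 0.18 towards RCS cells, and called genes then split as 8000 higher and 4924 lower, 7143 and 6220, and 6242 and 6206. Of 972 single-gene values, 928 kept direction and side of the threshold. With the sign kept, 20 lost the call and 12 gained it. A further 12 changed sign, and among these Wnt3 also lost its call and Wnt6 gained one. The sign changed for DKK1 (0.89 under quantile normalization, 0.51 under cyclic loess), Wnt6 (1.45 and 1.30) and Wnt3 (0.039 and 0.12). It also changed for Fzd1 (-0.046 under cyclic loess, -0.034 and -0.0036 without rib replicate 2 or 3, within -0.034 to 0.145 over libraries left out) and Fzd2 (-0.15 under cyclic loess, -0.064 without RCS replicate 2, -0.10 without rib replicate 2, within -0.10 to 0.20 over libraries left out). The cause was not tested. Under the filter of 10, Wnt3, Wnt6, Wnt7b and DKK1 had no value. Same-numbered libraries correlated at 0.064, -0.076 and 0.047 in their deviations, so the numbers do not pair them, and not every library correlated best with its own number. The replicate block gave 9 members higher and 29 lower, 10 and 39 pathway genes, and 5536 and 7340 of all genes. Differences against a group at 0 depend on the pseudocount and are not printed, other than those of Wnt3 where its sign changed. At this depth a gene listed at 0 may hold up to 1.93 reads.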

Other observations

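Several Wnt genes sit beside another Wnt gene in the RefSeq annotation on GRCr8. Wnt10b had 186, 163 and 145 normalized counts in RCS cells and 60.4, 25.4 and 18.2 in rib tissue, while its neighbour Wnt1 was listed at 0 in all 6 libraries. Wnt9a had 2.18, 2.08 and 2.13 in RCS cells and 112, 92.1 and 77.3 in rib tissue, while its neighbour Wnt3a was at 0 throughout. Wnt3 was at 0 in RCS cells and at 5.68, 1.03 and 9 in rib tissue, beside Wnt9b at 0 in every library. Wnt6 and Wnt10a, also neighbours, were both low, at 1.63, 1.04 and 1.42 for Wnt6 and at 0 for Wnt10a in RCS cells, against 3.03, 7.36 and 2 for Wnt6 and 13.2, 6.16 and 0 for Wnt10a in rib tissue. Of the 4 neighbouring pairs, 3 thus had 1 gene listed at 0 in all 6 libraries.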
